A study of Mus musculus with 28 samples.

Results

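The genes described here are the 10 members of a list of gp130 cytokine and STAT3 pathway genes, fixed by symbol and matched to Ensembl identifiers, out of 53342 identifiers in each of the 3 count tables. They are the ligands Cntf and Lif, the receptor subunits Il6st (gp130), Lifr, Cntfr and Il6ra, the kinases Jak1 and Jak2, the transcription factor Stat3 and the inhibitor Socs3. All 10 had an identifier in every table.

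Cytokines of the interleukin-6 family bind receptor complexes that share the signalling chain gp130. Binding activates Janus kinases, which phosphorylate STAT3, and STAT3 enters the nucleus and raises transcription of its targets, among them Socs3, whose product inhibits the receptor complex. In the brain the pathway is best known in astrocytes, where STAT3 takes part in the reactive state that follows injury, with high levels of the intermediate filament proteins GFAP and vimentin.

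RNA of the mouse cerebral cortex was sequenced as bulk RNA at postnatal days 17 and 24 (P17 and P24, 4 cKO and 4 Ctrl mice at each age) and by translating ribosome affinity purification (TRAP-Seq) at P24, with an immunoprecipitated (IP) and an Input library from each of 3 cKO and 3 Ctrl mice. The cKO mice were homozygous for a loxP-flanked target gene and carried Cre under the murine GFAP promoter (mGFAP-Cre), which is active in astrocytes. The Ctrl mice of the bulk experiments were littermates of the same sex with 1 or 2 loxP-flanked alleles, listed without Cre. For TRAP-Seq the mice expressed EGFP fused to ribosomal protein L10A in a Cre-dependent manner; the Ctrl mice of that experiment, too, had 1 or 2 loxP-flanked alleles, and since IP libraries were made from them they are taken to have carried mGFAP-Cre, which their description does not name. Mice with mGFAP-Cre and 1 loxP-flanked allele are elsewhere in the study counted as conditional heterozygotes. A Ctrl mouse with mGFAP-Cre and 2 such alleles would have the genotype given for cKO mice. The exact genotype of these Ctrl mice is thus uncertain. The cKO against Ctrl contrast may therefore differ between TRAP-Seq and bulk. All strains were kept on C57BL/6J.

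Between 8855488 and 14575302 counts fell on genes in a bulk library and between 18433087 and 27242445 in a TRAP-Seq library. Levels are given as CPM (counts scaled to a common library total) after TMM scaling, and the smallest share taken as measurable, 3 counts, lay between 0.106 and 0.341 CPM. In Ctrl mice all 7 astrocyte markers were higher in IP than in Input, and 6 of 7 neuronal and 7 of 7 microglial markers were lower. A pair of libraries stood apart from the others of their group, P24 bulk cKO replicate 1 and TRAP Input cKO replicate 1. In IP, cKO replicate 2 was also farther from replicates 1 and 3 than these were from each other. The chi-square of the counts per degree of freedom was 31.2 and 30.0, against 18.3. The summed level of 7 olfactory bulb markers was between 12.7 and 116.8 CPM in P24 bulk Ctrl libraries and between 9.10 and 13.0 CPM in cKO libraries, and between 3.82 and 11.7 CPM in IP Ctrl and between 2.80 and 3.09 CPM in IP cKO libraries. Its part in the differences described below was not tested.

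In the ribosome-bound IP RNA, which was enriched for astrocyte markers, both ligands, Stat3 and Socs3 were upregulated in P24 cKO mice. Jak1 and Jak2 were slightly downregulated, and no receptor subunit among the members passed the test. In edgeR's quasi-likelihood test with Benjamini–Hochberg adjustment over all genes tested (threshold 0.05), 6 of the 10 members were called, 4 higher and 2 lower, beside 20.0% of all 23864 genes tested (11.6% higher and 8.42% lower). With library size alone in place of TMM, 2002 genes were higher and 3529 lower instead of 2772 and 2010, and 9 members were called, with Stat3, Socs3, Cntf and Lif higher and Il6st, Lifr, Jak1, Jak2 and Cntfr lower. In P24 bulk cortex 1 of the 9 members tested, Stat3, was called, beside 1.72% of all genes. At P17 none of the 8 members tested was called, beside 0.0943% of all genes; 2 members had an unadjusted p under 0.05 there. In TRAP Input none of the 10 members was called, beside 0.109% of all genes, and 2 had an unadjusted p under 0.05. These 2, Cntf and Lif, passed the filter on low counts through the cKO libraries. DESeq2 called 8 members in IP, 1 in P24 bulk, and none at P17 or in Input. Over all genes it called 5152 in IP, 598 in P24 bulk, 41 at P17 and 127 in Input. The edgeR test called 4782, 388, 20 and 26. The cKO and Ctrl groups did not overlap for 7 of 10 members in IP (beside 37.6% of all genes), for Stat3 and Lif in P24 bulk (7.66%), for Cntf and Lif in Input (11.8%) and for no member at P17 (2.83%).

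Without IP Ctrl replicates 1 and 3, the libraries high in olfactory bulb markers, 1 Ctrl library was left, which was assumed to vary like the others, and Cntf alone of the members was called, beside 471 calls over all genes in place of 4782. The log2 fold changes of the other called members kept their direction and were 0.54 for Stat3, 0.94 for Socs3, 0.84 for Lif, -0.31 for Jak1 and -0.29 for Jak2, beside 0.52, 1.03, 0.96, -0.37 and -0.31 with all libraries. Of the 19 genes called in IP on the wider lists described below, 8 were still called (Clcf1, Jak3, Stat4, Bcl3, Ccnd1, Cebpb, Serpina3n and Vim). The others kept their direction, at values such as 1.04 for Osmr (1.15 with all libraries), -0.58 for Ptpn11 (-0.62), -0.69 for Stat5a (-0.64) and -0.36 for Pias3 (-0.35); Stat6 (0.38 beside 0.74), Timp1 (2.09 beside 1.54) and Il11 (3.79 beside 2.48) moved most. The lower precision of a single Ctrl library and the absence of the 2 left out cannot be told apart in these lost calls. In a fit over all TRAP libraries 3 members were called, Cntf, Lif and Socs3. Without P24 bulk Ctrl replicates 1 and 4, which were high in the same markers, Stat3 was still called in P24 bulk.

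**Figure D1:**
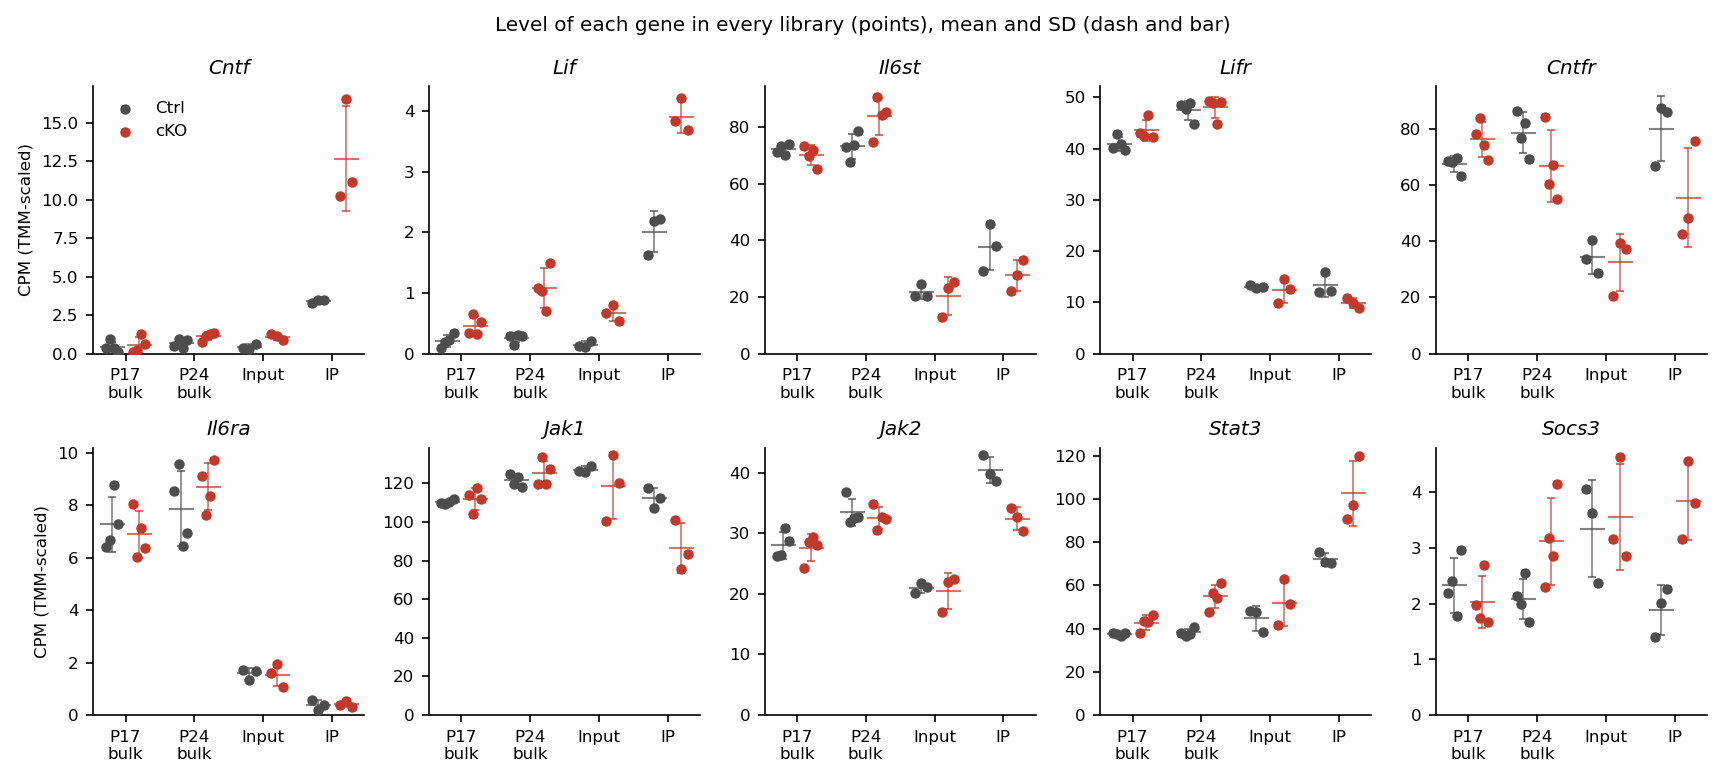
Level of each of the 10 genes in every library, in TMM-scaled CPM on linear axes that start at 0, for P17 bulk, P24 bulk, TRAP Input and TRAP IP libraries of Ctrl (grey) and cKO (red) mice, with the group mean (dash) and SD (bar). In IP, all cKO points of Cntf, Lif, Stat3 and Socs3 lie above all Ctrl points, and those of Lifr, Jak1 and Jak2 lie below. Bulk, IP and Input values come from tables or fractions that were prepared differently, so heights are compared within a panel position only.

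The 4 upregulated genes in IP are shown by the 250 bases before their RefSeq transcription start (GRCm38.p6). All 10 members matched an entry of the promoter table, in 16 entries. The motif searched was TTCNNNGAA, the sequence that STAT dimers recognise, which reads the same on both strands. Capitals mark the motif.
Socs3 (chr11:117969367-117969616, minus strand): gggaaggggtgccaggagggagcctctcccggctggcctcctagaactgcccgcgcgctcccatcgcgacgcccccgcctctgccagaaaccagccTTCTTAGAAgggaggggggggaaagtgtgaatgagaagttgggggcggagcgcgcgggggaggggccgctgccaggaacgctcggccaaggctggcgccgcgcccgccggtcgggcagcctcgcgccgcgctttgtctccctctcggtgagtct
Stat3 (chr11:100939541-100939790, minus strand): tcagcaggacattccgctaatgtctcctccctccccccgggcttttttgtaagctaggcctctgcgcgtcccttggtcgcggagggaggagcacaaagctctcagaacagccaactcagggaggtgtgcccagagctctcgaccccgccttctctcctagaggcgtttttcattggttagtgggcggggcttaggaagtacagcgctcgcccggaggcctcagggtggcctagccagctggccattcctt
Lif (chr11:4257318-4257567, plus strand): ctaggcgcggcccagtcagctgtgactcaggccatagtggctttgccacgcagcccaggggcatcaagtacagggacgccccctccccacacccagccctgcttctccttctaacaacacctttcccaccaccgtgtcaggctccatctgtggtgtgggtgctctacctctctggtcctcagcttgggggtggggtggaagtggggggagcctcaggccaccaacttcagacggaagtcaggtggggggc
Cntf (chr19:12765633-12765882, minus strand): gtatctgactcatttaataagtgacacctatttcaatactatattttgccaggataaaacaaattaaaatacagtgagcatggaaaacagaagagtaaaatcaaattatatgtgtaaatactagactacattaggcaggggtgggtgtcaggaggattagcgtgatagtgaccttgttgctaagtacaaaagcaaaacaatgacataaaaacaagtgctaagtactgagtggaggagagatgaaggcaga
Socs3 held the motif once, between 154 and 146 bases before its start, and none of the other 15 member entries held it in this window. Over all 32851 entries, 7.02% held it. A match describes the letters only, and its absence from 250 bases does not speak to binding elsewhere.

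Among the ligands, Cntf encodes ciliary neurotrophic factor, which signals through CNTFR, LIFR and gp130. In IP, Cntf was at 3.31, 3.51 and 3.48 CPM in the Ctrl mice and at 10.2, 16.6 and 11.2 CPM in the cKO mice. All cKO values were above all Ctrl values, and the level rose by 1.89 on the log2 scale (SE 0.19, adjusted p = 0.000177, edgeR quasi-likelihood test). In Input it was at 0.380, 0.278 and 0.617 CPM in Ctrl mice and at 1.25, 1.11 and 0.883 CPM in cKO mice. These groups did not overlap either, but the difference of 1.33 on the log2 scale (SE 0.38) rested on 5 to 28 counts per library and did not pass (adjusted p = 0.735). In P24 bulk the difference was 0.70 (SE 0.32, adjusted p = 0.385) and the groups overlapped, between 0.375 and 0.957 CPM in Ctrl and between 0.742 and 1.36 CPM in cKO mice. At P17 Cntf was too low to be tested, with 1 to 12 counts per library.

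The exons of Cntf are largely shared with another gene of the same strand: 78.9% of their length overlaps Zfp91, and reads there cannot be assigned to either gene by strand. Zfp91 itself differed by 0.10 on the log2 scale in IP (SE 0.09, adjusted p = 0.505). How reads of the shared exons were counted is not given in the sources used here, and their part in the Cntf values was not tested.

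Lif encodes leukemia inhibitory factor, a ligand of LIFR and gp130. In IP, Lif was at 1.62, 2.19 and 2.23 CPM in Ctrl mice and at 3.84, 4.21 and 3.69 CPM in cKO mice, without overlap, and it rose by 0.96 on the log2 scale (SE 0.19, adjusted p = 0.00579). In Input it was at 0.127, 0.111 and 0.206 CPM in Ctrl mice, which is 2 to 4 counts and near the floor, against 0.667, 0.809 and 0.530 CPM in cKO mice. The fitted difference of 2.14 (SE 0.46) did not pass (unadjusted p = 0.00138, adjusted p = 0.292), and in a fit over all TRAP libraries it did (adjusted p = 0.0166). In P24 bulk Lif was at 0.294, 0.147, 0.300 and 0.292 CPM in Ctrl mice and at 1.08, 1.03, 0.695 and 1.501 CPM in cKO mice. All 4 cKO libraries were above all 4 Ctrl libraries, but with 2 to 21 counts Lif did not pass the filter on low counts and was not tested; without that filter its adjusted p was 0.00547. At P17 Lif had 1 to 3 counts in Ctrl and 3 to 6 in cKO libraries, too few to compare.

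No receptor subunit among the members was called in IP. The estimates for Il6st, Lifr and Cntfr were nonetheless lower in cKO mice, and larger in size than those of the called Jak1 and Jak2. Il6st encodes gp130, the chain shared by the family. In IP it was at 29.3, 45.8 and 38.1 CPM in Ctrl mice and at 22.1, 27.8 and 33.0 CPM in cKO mice, with overlap, a difference of -0.44 on the log2 scale (SE 0.18, adjusted p = 0.103). In P24 bulk the difference was 0.19 (SE 0.07, adjusted p = 0.223), with Ctrl mice between 67.6 and 78.7 CPM and cKO mice between 74.8 and 90.8 CPM. Without bulk cKO replicate 1 this bulk difference was 0.25 with an adjusted p of 0.0269, and without IP cKO replicate 3 or IP Ctrl replicate 1 the IP difference was called lower (-0.59 with an adjusted p of 0.0484, and -0.60 with 0.0384).

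Lifr, the partner chain of gp130 for LIF and CNTF, was between 11.9 and 15.98 CPM in IP Ctrl libraries and between 8.97 and 10.8 CPM in IP cKO libraries. The groups did not overlap, and the difference of -0.43 (SE 0.15) did not pass (adjusted p = 0.0636). Bulk cortex gave a difference of 0.02 (SE 0.06) at P24 and of 0.09 (SE 0.05) at P17.

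Cntfr, the ligand-binding chain for CNTF, was at 66.9, 87.6 and 86.2 CPM in IP Ctrl libraries and at 42.7, 48.4 and 75.7 CPM in IP cKO libraries, with overlap through cKO replicate 3. The difference was -0.52 (SE 0.19, adjusted p = 0.0826); it was -0.81 without that library (adjusted p = 0.00373). In bulk cortex the differences had opposite signs at the 2 ages, -0.24 (SE 0.12, adjusted p = 0.419) at P24 and 0.18 (SE 0.07, adjusted p = 1.00) at P17. The interaction of age and genotype for Cntfr was -0.42 (SE 0.14, unadjusted p = 0.00949, adjusted p = 0.600). With the replicate number as a block it was -0.43 (adjusted p = 0.0457), and without P24 bulk cKO replicate 1 it was -0.55 (adjusted p = 0.0236); without that replicate the P24 difference itself was -0.37 (adjusted p = 0.0213).

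Il6ra, which binds interleukin-6 itself, was between 6.01 and 9.72 CPM in all bulk libraries and its largest genotype difference there was 0.15 (SE 0.13, adjusted p = 0.714), at P24. In IP it had 5 to 15 counts per library, and its difference of 0.10 (SE 0.47) was far inside its error.

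Of the receptors on the wider list, Osmr, the chain that pairs with gp130 for oncostatin M, was upregulated in both IP and bulk RNA. In IP Osmr was at 3.05, 3.44 and 3.12 CPM in Ctrl mice and at 5.89, 8.02 and 7.26 CPM in cKO mice, a rise of 1.15 on the log2 scale (SE 0.17, adjusted p = 0.00129). In P24 bulk it rose by 1.37 (SE 0.14, adjusted p = 0.000369), from between 3.30 and 4.42 CPM to between 8.63 and 12.4 CPM. These Osmr groups did not overlap in either set. The other tested members of the list, Il11ra1, Il11ra2 and Il31ra in IP, were not called. Thus 1 of 4 tested receptors was higher and none lower, beside 11.6% higher and 8.42% lower over all genes. Il11ra1 and Il11ra2 are near-identical copies whose reads may have been split between them.

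The kinases Jak1 and Jak2 are bound to the cytoplasmic part of the receptors. In IP, Jak1 was at 117.7, 107.4 and 112.6 CPM in Ctrl mice and at 100.9, 75.8 and 83.4 CPM in cKO mice, without overlap, and fell by 0.37 on the log2 scale (SE 0.11, adjusted p = 0.0410). Jak2 was at 42.9, 39.8 and 38.7 CPM in Ctrl mice and at 34.2, 32.7 and 30.4 CPM in cKO mice, also without overlap, and fell by 0.31 (SE 0.10, adjusted p = 0.0403). Both calls lay close to the threshold. Jak2 lost its call when any 1 of the 6 IP libraries was left out (adjusted p between 0.0586 and 0.163), and Jak1 when any 1 but cKO replicate 1 was (adjusted p between 0.0763 and 0.173). In bulk cortex and Input the differences of Jak1 lay between -0.10 and 0.04 and those of Jak2 between -0.04 and -0.02, all inside 1 SE of 0.

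Stat3, the main STAT of gp130 receptors, was the member called in both bulk cortex and IP at P24. In P24 bulk it was at 37.9, 36.8, 37.6 and 40.8 CPM in Ctrl mice and at 47.9, 56.5, 54.3 and 61.0 CPM in cKO mice. All cKO values were above all Ctrl values, with the lowest in cKO replicate 1, and Stat3 rose by 0.52 on the log2 scale (SE 0.07, adjusted p = 0.00318). In IP it was at 75.4, 70.9 and 70.6 CPM in Ctrl mice and at 91.0, 97.4 and 119.7 CPM in cKO mice, again without overlap, a rise of 0.52 (SE 0.11, adjusted p = 0.00972). It was called without any 1 library in both comparisons, at between 0.47 and 0.58 in P24 bulk and between 0.38 and 0.62 in IP. In Input it was at 48.2, 47.7 and 38.3 CPM in Ctrl mice and at 41.6, 63.1 and 51.4 CPM in cKO mice, with overlap (0.22, SE 0.19, adjusted p = 0.812). In bulk RNA, more astrocytes and more Stat3 RNA per cell cannot be told apart. Of 7 astrocyte markers, 2 were higher and 2 lower in P24 bulk cKO cortex, and their sum lay between 4635 and 5091 CPM in Ctrl and between 4011 and 4415 CPM in cKO mice. In IP 3 were lower and none higher, with sums between 15859 and 19761 CPM in Ctrl and between 12784 and 16212 CPM in cKO mice. Input went the other way, with 1 higher and none lower, and sums between 1528 and 1675 CPM in Ctrl and between 1958 and 2427 CPM in cKO mice, without overlap. Their part in the result was not tested.

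At P17 Stat3 was at 38.1, 37.6, 36.8 and 38.1 CPM in Ctrl mice and at 38.0, 43.4, 43.3 and 46.4 CPM in cKO mice. Only cKO replicate 1 overlapped the Ctrl mice, and the difference of 0.18 (SE 0.06) did not pass (unadjusted p = 0.0122, adjusted p = 0.946). The difference between the ages was 0.33 (SE 0.10, unadjusted p = 0.00358) and did not pass over all genes either (adjusted p = 0.491), beside 0.0470% of all genes called in that interaction. With same-numbered libraries as pairs, no member was called at P17, and the calls over all genes went from 20 to 109.

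Socs3, an early target of STAT3 and inhibitor of the pathway, was low in every set. In IP it was at 1.39, 2.00 and 2.27 CPM in Ctrl mice and at 3.16, 4.57 and 3.80 CPM in cKO mice. The groups did not overlap, and Socs3 rose by 1.03 on the log2 scale (SE 0.23, adjusted p = 0.00977). In Input it was at 4.05, 3.62 and 2.37 CPM in Ctrl mice and at 3.16, 4.64 and 2.86 CPM in cKO mice, with overlap, a difference of 0.08 (SE 0.28). The difference between fractions, 0.94 (SE 0.38, adjusted p = 0.485), was not past the threshold, and 0.0582% of all genes passed in that interaction, none of them a member. In P24 bulk Socs3 was at 2.13, 1.99, 2.55 and 1.68 CPM in Ctrl mice and at 2.29, 3.18, 2.85 and 4.15 CPM in cKO mice, with overlap (0.57, SE 0.21, adjusted p = 0.258). At P17 the difference was -0.20 (SE 0.23).

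**Figure D2:**
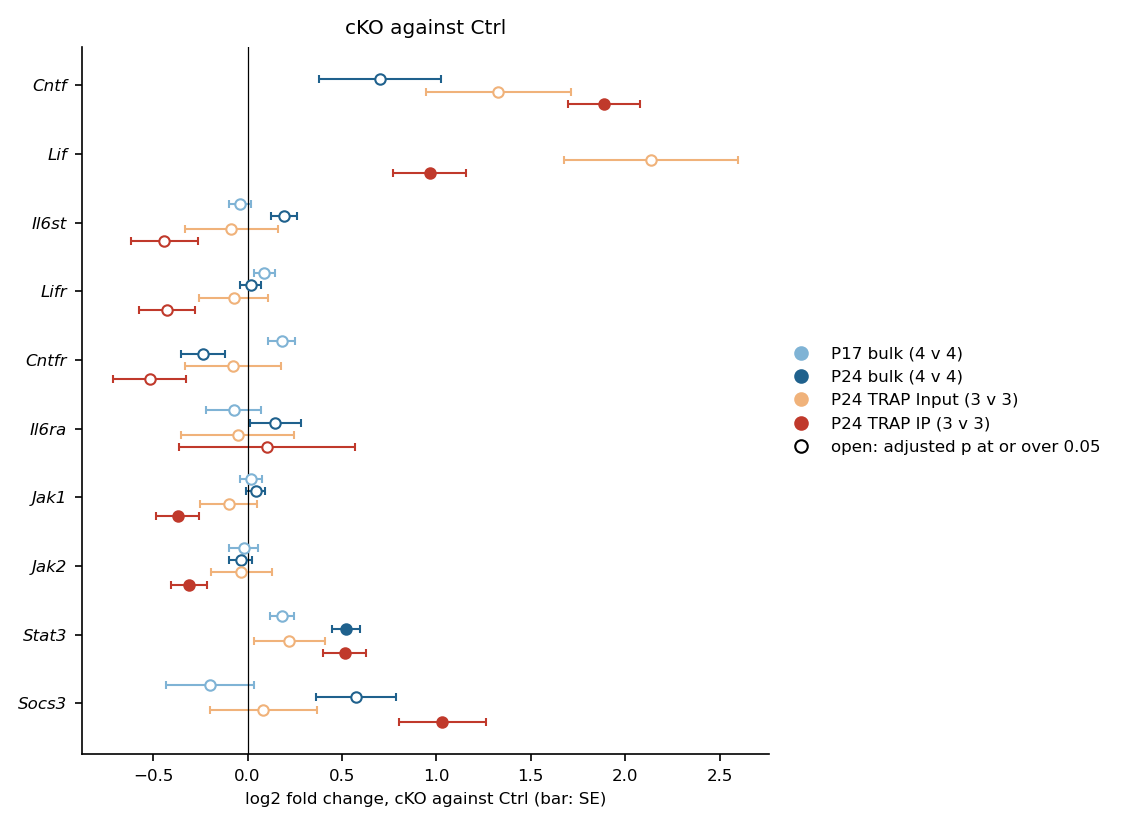
Log2 fold change of cKO against Ctrl with its SE for each gene in the 4 sets, filled where the adjusted p was under 0.05. Filled points stand for Stat3 in P24 bulk and for Cntf, Lif, Jak1, Jak2, Stat3 and Socs3 in IP; Lif at both bulk ages and Cntf at P17 have no point, as their counts were too low to test.

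Comparing IP with Input in Ctrl mice showed which members were enriched in the IP. Of the 10, 6 were higher in IP, Lif by 3.71 (SE 0.37), Cntf by 2.99 (SE 0.27), Cntfr by 1.21 (SE 0.15), Jak2 by 0.94 (SE 0.10), Il6st by 0.78 (SE 0.16) and Stat3 by 0.68 (SE 0.11) on the log2 scale. Il6ra and Socs3 were lower, by -2.06 (SE 0.36) and -0.84 (SE 0.26). Lifr (0.02) and Jak1 (-0.19, adjusted p = 0.0707) were not called. The background is high, since 71.0% of all genes were called in this comparison, 35.3% higher and 35.7% lower. Without Ctrl replicate 1, Socs3 was no longer called (-0.45, adjusted p = 0.221). The values of Lif rested on 2 to 4 Input counts per library. Lif and Cntf passed the filter on low counts through the IP libraries, and Il6ra through the Input libraries. The number called here is therefore a description only.

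In cKO mice 4 members were higher in IP than in Input and 1 lower, beside 56.3% of all genes called (27.8% higher and 28.5% lower). Cntf was higher by 3.54 (SE 0.27), Lif by 2.53 (SE 0.26), Stat3 by 0.96 (SE 0.20) and Jak2 by 0.64 (SE 0.17), and Il6ra was lower by -1.91 (SE 0.38). Socs3 showed 0.10 (SE 0.26) and was not called. Cntfr was at 0.76 (SE 0.30, adjusted p = 0.0576), and with each mouse's IP and Input as a pair it was called (adjusted p = 0.0157). Jak2 lost its call without cKO replicate 2 (adjusted p = 0.0693). Without cKO replicate 1, whose Input library stood apart, 8 members were called. Over all genes, 16442 of 24756 tested were called without it, in place of 13526 of 24011. The IP libraries in these contrasts are those of the genotype comparison, so the values are not independent of it, and no member passed the test of the difference between fractions.

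**Figure D3:**
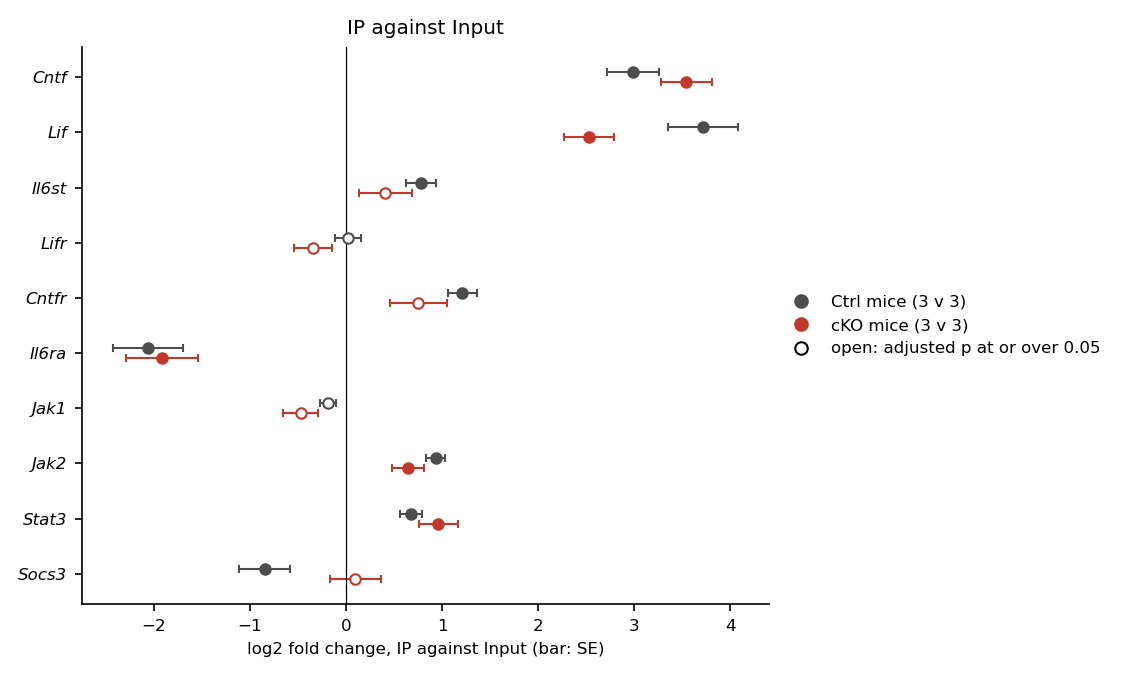
Log2 fold change of IP against Input with its SE in Ctrl (grey) and cKO (red) mice, filled where the adjusted p was under 0.05. Cntf and Lif lie farthest to the right in both genotypes, and Il6ra farthest to the left.

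Per kilobase of exon, levels were set side by side between genes, which assumes reads spread evenly over the exons. The RNA was primed or selected by oligo-dT, and how evenly exons were covered was not tested. For Cntf the divisor is its whole exon length, most of which is shared with Zfp91, so its place in the orders below depends on how shared reads were counted and is uncertain. In IP libraries of Ctrl mice the order of mean CPM per kilobase was Cntfr (28.8), Jak1 (15.6), Jak2 (8.04), Stat3 (7.59), Il6st (3.40), Cntf (3.20), Lifr (1.24), Socs3 (0.653), Lif (0.463) and Il6ra (0.0441). The neighbours Jak2 and Stat3, Il6st and Cntf, and Socs3 and Lif overlapped between libraries, and the others did not. In IP libraries of cKO mice Cntf, at 11.8 CPM per kilobase, overlapped Jak1 (11.999) and Stat3 (10.8). In P24 bulk cortex of Ctrl mice Cntfr (28.3) and Jak1 (16.8) also led, followed by Jak2 (6.65), Il6st (6.60), Lifr (4.41) and Stat3 (4.02), while Il6ra (0.911), Socs3 (0.722), Cntf (0.634) and Lif (0.0594) were lowest. Within that order Jak2 and Il6st, Lifr and Stat3, Il6ra and Socs3, and Socs3 and Cntf overlapped.

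Of 8 other ligands on the wider list, 5 were tested in IP, where Clcf1, Il11 and Ebi3 were called higher and none lower. Clcf1, with 8 to 19 counts in Ctrl libraries, and Il11 passed the filter on low counts through the cKO libraries alone, so the number called among those tested is a description only. Clcf1, another ligand of CNTFR, was at 0.301, 0.416 and 0.742 CPM in Ctrl mice and at 4.18, 5.15 and 5.01 CPM in cKO mice, and rose by 3.30 (SE 0.28, adjusted p = 6.00e-05). Il11 encodes interleukin-11; it had 1 to 4 counts in Ctrl and 11 to 19 in cKO libraries and rose by 2.48 (SE 0.54, adjusted p = 0.00878), which the low control counts make uncertain in size. Ebi3, a subunit of interleukin-27, rose by 0.79 (SE 0.24, adjusted p = 0.0415), and lost its call without any 1 of the 6 libraries. Il6 and Osm, with 0 to 3 and 0 to 6 counts per IP library, were too low to be tested. In P24 bulk none of 3 tested ligands was called.

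Other kinases and STATs were divided in IP, 3 of 8 higher and 2 lower, with a median log2 fold change of -0.08. Over all genes tested in IP, 11.6% were higher and 8.42% lower. Jak3 rose by 1.41 (SE 0.32), Stat4 by 1.16 (SE 0.12) and Stat6 by 0.74 (SE 0.20), while Stat5a (-0.64, SE 0.15) and Stat5b (-0.53, SE 0.13) fell. In Stat4 26.7% of the exon length is shared with Gm28177 on the same strand. Stat6 lost its call without cKO replicate 1 or 2 or Ctrl replicate 1 or 3, Stat5a without cKO replicate 2, and Stat5b without cKO replicate 2 or Ctrl replicate 1 or 2. Of 15 inhibitors none was higher and 3 were lower, with a median of -0.12, beside 20.0% of all genes called in either direction. Ptpn11, the phosphatase SHP2, fell by 0.62 (SE 0.10, adjusted p = 0.00190), Pias1 by 0.38 and Pias3 by 0.35; Pias1 lost its call without any 1 library but cKO replicate 1, and Pias3 without any 1 but cKO replicate 3. Socs3 was thus the one suppressor of cytokine signalling among those tested that passed; Socs1, Socs2, Socs4, Socs5, Socs6, Socs7 and Cish did not. In P24 bulk and Input no gene of these lists was called.

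Among 20 genes listed as known STAT3 targets, 7 of 19 tested were higher in IP and none lower, beside 11.6% higher and 8.42% lower over all genes tested, with a median log2 fold change of 0.34 beside -0.01 over all genes. The list was chosen with earlier results of these data known, and Bcl3, with 3 to 9 counts in Ctrl libraries, passed the filter through the cKO libraries alone. The share called and the median are therefore a description only. Bcl3, a co-regulator of NF-κB, rose by 3.39 (SE 0.38, adjusted p = 0.000305), Serpina3n, a serine protease inhibitor, by 1.81 (SE 0.24), Ccnd1 (cyclin D1) by 1.52 (SE 0.10), and Cebpb, a transcription factor, by 0.96 (SE 0.16). Timp1, an inhibitor of metalloproteinases, rose by 1.54 (SE 0.45, adjusted p = 0.0344), of which cKO replicate 2 carried much, at 7.03 CPM against 2.18 and 2.06 CPM in the other 2; it lost its call without that replicate or any 1 Ctrl library. Vim and Gfap, the filament genes, rose by 3.13 (SE 0.32) and 0.76 (SE 0.11). The remaining 12 were not called, among them Myc (-0.74, SE 0.24, adjusted p = 0.0505), Fos (0.32, SE 0.15) and Junb (0.15, SE 0.21). In P24 bulk 4 of 18 tested were higher and none lower, Vim (3.22), Gfap (2.51), Ccnd1 (1.04) and Cebpd (0.78); Cebpd lost its call without cKO replicate 2, 3 or 4 or Ctrl replicate 1 or 2. At P17 Gfap was the 1 gene of 18 called (1.03, SE 0.08), and in Input Vim was the 1 of 20 (3.41, SE 0.35), a call that was lost without any 1 Ctrl library. Many of these genes have regulators other than STAT3.

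**Figure D4:**
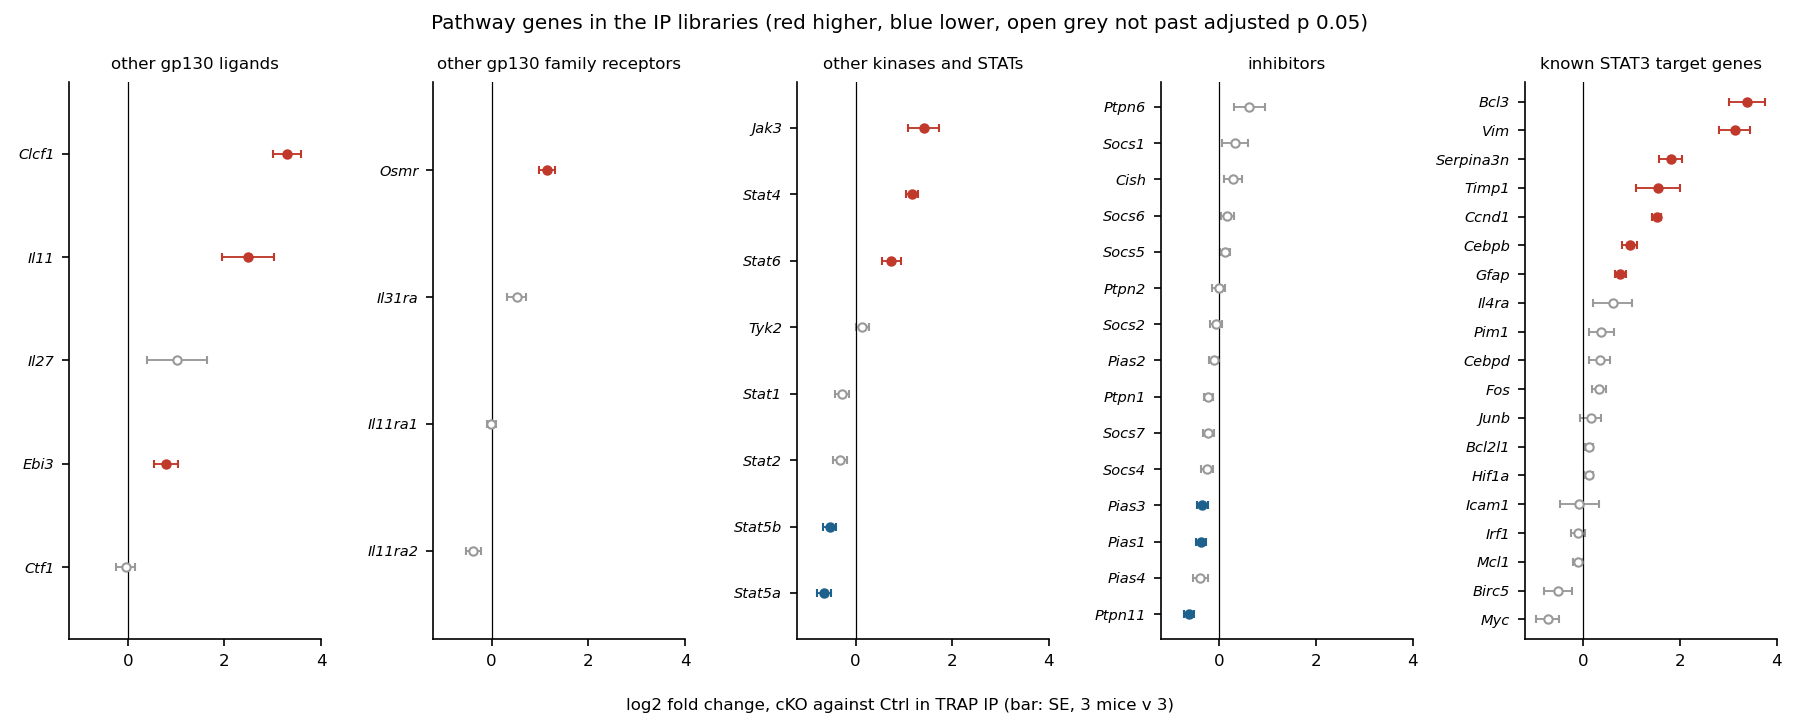
Log2 fold change of cKO against Ctrl in IP with its SE for the tested genes of the 5 wider lists, red where higher and blue where lower at an adjusted p under 0.05 and open grey otherwise. Called ligands, receptors and STAT3 targets lie to the right of 0, called inhibitors to the left, and kinases and STATs on both sides. Over all genes tested in IP, 11.6% were called higher and 8.42% lower.

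Markers of other cell types in the IP libraries were summed in the same way. The 7 microglial markers came to between 88.2 and 99.8 CPM in Ctrl and between 81.7 and 90.7 CPM in cKO mice, and none was called. The 5 markers of infiltrating leukocytes came to between 0.625 and 1.05 CPM and between 0.555 and 1.34 CPM, and all were too low to be tested. Of 7 neuronal markers 1 was lower, and of 6 markers of mural cells and fibroblasts 1 was higher and 1 lower, with sums between 17.5 and 26.2 CPM in Ctrl and between 25.1 and 32.8 CPM in cKO mice. The part of the mural and neuronal markers in the results was not tested.

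Likeness across libraries was measured for Stat3 and Socs3 as Pearson's r of log2 CPM over the 28 libraries, each centred within its set, among 17880 genes. Closest to Stat3 were Gpnmb (0.88), Ccnd1 (0.88), Sgpl1 (0.88), Ddr1 (0.87) and Acss2os (0.87). Closest to Socs3 were Slc6a8 (0.82), S1pr3 (0.81), Aebp1 (0.81), Hmga1b (0.80) and Hmga1 (0.80), the last 2 being near copies of each other. The libraries share the genotype contrast, so a gene that moved with genotype scores high by that alone.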

How the data were processed

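Cortical RNA of 28 libraries was analysed from 3 tables of raw counts per Ensembl gene, deposited by the authors: 8 P24 bulk, 8 P17 bulk and 12 P24 TRAP-Seq libraries (6 IP and 6 Input), 1 mouse per library. The authors aligned the reads to mm10 with STAR in Galaxy; the counting tool and its strand setting are not given in the sources used here. The ages of the bulk tables come from the tables' own names. Of 53342 identifiers, 53237 had a symbol in GENCODE M21, and 1 truncated identifier (4 to 46 counts per library) was left out.

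Genes were kept by filterByExpr (minimum count 10, minimum total 15, proportion 0.7), scaled by TMM and tested with edgeR 4.0.16 (quasi-likelihood, R 4.3.3), with Benjamini–Hochberg adjustment over all genes tested. An SE is the absolute log2 fold change over the square root of F. Alternatives were DESeq2 1.42.0, other scalings and filters, a replicate block, 1 fit over all TRAP libraries, and leaving out each library. A fit without the Ctrl libraries high in olfactory bulb markers was chosen after seeing the data. The scripts were tested on simulated counts with known changes.

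The members and the wider lists were chosen with earlier results of these data known. The genes named are all members, the called genes of the wider lists, and the 5 genes most like Stat3 and Socs3; the uncalled genes of the wider lists that are named, and Zfp91, were chosen after their values were seen. Likeness used log2(CPM + 0.5) of genes with a mean of at least 1 CPM. Same-numbered cKO and Ctrl libraries were checked for shared deviations: every correlation was above 0.1 at P17 (0.167 to 0.380), where the numbers were taken as pairs, but not in P24 bulk (0.0289 to 0.219), IP (0.0355 to 0.116) or Input (-0.0342 to 0.102). IP and Input of a mouse are pairs by design. None of the reported tests used a block, so their SEs and adjusted p ignore the pairs of a mouse and those at P17. Pairs entered only in the alternative with a replicate block. Counting error alone sets the 3-count floor. Some genes, the targeted gene among them, are not reported here. Promoter sequences are RefSeq's, on GRCm38.p6.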

Additional observations from a re-analysis of the deposited data

Results flagged for a closer look

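Of 40 groups of 4 bulk libraries (10 genes in 4 groups), 2 held a library far from the others, and chance alone gives about 1 in 20. Lifr was at 44.9 CPM in P24 bulk cKO replicate 3, against 48.9 to 49.2 CPM in the other cKO libraries. Lif was at 0.147 CPM in P24 bulk Ctrl replicate 2, which is 2 counts, against 0.292 to 0.300 CPM in the other Ctrl libraries.

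The effect of genotype differed between the ages for Gfap, by 1.48 on the log2 scale (adjusted p = 0.000129, edgeR quasi-likelihood test of the interaction), and for Vim, by 2.81 (adjusted p = 0.0200), both larger at P24. Vim lost this call without any 1 of 9 bulk libraries: P17 cKO replicates 1, 2 and 4, P17 Ctrl replicates 2, 3 and 4, P24 cKO replicate 3, and P24 Ctrl replicates 2 and 3 (adjusted p between 0.0517 and 0.0752). Between the TRAP fractions it differed for Clcf1, by 2.98, and for Ccnd1, by 1.37 (both adjusted p = 0.0467), both larger in IP. Each of these lost its call with each mouse as a block (adjusted p = 0.130 for Clcf1 and 0.112 for Ccnd1) and without cKO replicate 2 or 3 or any 1 Ctrl mouse.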

How the results depend on the processing

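Of 1039 member values recomputed under alternatives, 36 changed sign, and 0 of the 225 that belong to a called value did. Lif in bulk and in the age interaction and Cntf at P17 were not tested and are not among these. Low counts limit Lif and Cntf outside IP and Il6ra in IP.

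The number of members called in P24 bulk was 2 in place of 1 with no filter beyond 1 count, which admits Lif, and 1 to 3 when 1 library was left out. In IP it was 3 in place of 6 in the fit over all TRAP libraries, 1 without the 2 Ctrl libraries high in olfactory bulb genes, and 4 to 6 without 1 library. In Input it was 1 in place of 0 in the fit over all TRAP libraries, and 0 without any 1 library. In Ctrl IP against Input it was 5 in place of 8 with at least 10 counts in every library, which removes Cntf, Lif and Il6ra from the test, and 7 to 8 without 1 mouse. In cKO IP against Input it was 4 to 8 without 1 mouse. In the age interaction it was 1 in place of 0 with the replicate block (Cntfr) and 0 to 1 without 1 library. No alternative gave a member call at P17 or in the fraction interaction.

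With the replicate block 9 members were called in IP (adding Il6st at an adjusted p of 0.0125, Lifr at 0.0382 and Cntfr at 0.00661). Over all 23864 genes tested in IP, 6735 were called with the block in place of 4782. The numbers are not shown to pair the mice in IP. The block left the P24 bulk count of members at 1 and the Input count at 0.

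Without the 2 Ctrl libraries, Lifr was at -0.00869 and Jak2 at 0.0188 in P24 bulk, Socs3 at -0.0327 and Il6ra at 0.19 in Input, and Jak2 at 0.0363 in the age interaction, and with library size alone Il6ra was at -0.0127 in IP, all of the opposite sign to the reported value. Leaving out 1 library also turned signs. In P24 bulk Lifr ranged from -0.0117 to 0.0472 and Jak2 from -0.0710 to 0.0118. At P17 Jak1 ranged from -0.00226 to 0.0506, Jak2 from -0.0545 to 0.0372 and Il6ra from -0.15 to 0.0248. In IP Il6ra ranged from -0.22 to 0.49. In Input Socs3 ranged from -0.15 to 0.26, Il6st from -0.27 to 0.16, Lifr from -0.21 to 0.0634, Jak1 from -0.20 to 0.00415, Jak2 from -0.11 to 0.0844, Il6ra from -0.26 to 0.16 and Cntfr from -0.23 to 0.16. In Ctrl IP against Input Lifr ranged from -0.12 to 0.16, and in cKO IP against Input Socs3 ranged from -0.0117 to 0.21. In the age interaction Cntf ranged from -0.33 to 1.16, Jak1 from -0.0123 to 0.0532 and Jak2 from -0.0764 to 0.0286, and in the fraction interaction Il6ra ranged from -0.0846 to 0.47. The cause was not tested.

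Counts over all genes moved as well. In P24 bulk 388 became 598 with DESeq2, 619 with no filter, 952 without cKO replicate 1 and 101 without the 2 Ctrl libraries. At P17 20 became 41 with DESeq2 and 55 with no filter. In IP 4782 became 1684 in the fit over all TRAP libraries, and with library size alone 2002 were higher and 3529 lower in place of 2772 and 2010, with the median of all genes at -0.13 in place of -0.01. In Input 26 became 127 with DESeq2, 112 with no filter, 15 with at least 10 counts and 8 with the block. In Input it was also 127 in the fit over all TRAP libraries and 0 without the 2 Ctrl libraries. In the age interaction 11 became 54 with DESeq2, 62 with no filter, 55 with the block and 7 without the 2 Ctrl libraries, and in the fraction interaction 15 became 284 with DESeq2, 189 with no filter, 10 with RLE factors and 6 with the block. Leaving out 1 library gave 216 to 952 calls in P24 bulk, 11 to 19 at P17, 2633 to 4810 in IP and 4 to 112 in Input (112 without cKO replicate 1). Leaving out 1 library or mouse gave 8473 to 16442 calls in cKO IP against Input, 4 to 149 in the age interaction (149 without P24 bulk cKO replicate 1) and 2 to 340 in the fraction interaction (340 without cKO replicate 1). Each bulk table holds 1 age, so a fit over all its libraries is the reported fit itself and gives no other value.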
